A study of Drosophila melanogaster with 73 samples.

Results

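The cytosolic ribosomal protein genes of Drosophila melanogaster were described in abdominal fat bodies kept at 25°C or moved to 18°C. The members were the genes of the deposited table whose symbol starts with RpL or RpS followed by a digit or by P and a digit. The case of the letters was kept, so the mitochondrial ribosomal protein genes (mRpL and mRpS) were left out, and symbols marked as pseudogenes were to be left out, of which there were 0. The rule found 92 of the 23932 genes in the table, 54 with a large subunit symbol and 38 with a small subunit symbol. It used no measured value.

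The cytosolic ribosome makes the proteins encoded by nuclear genes, and each particle joins a large and a small subunit built from ribosomal RNA and a fixed set of proteins. The small subunit reads the messenger RNA and the large subunit joins the amino acids. In flies, messenger RNAs of ribosomal proteins are among the most abundant in almost every cell, and their translation responds to nutrient signalling. The fat body is the fly's organ of storage and of secretion into the blood, with functions of both liver and adipose tissue.

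The flies were female Iso31, an isogenic w1118 strain, aged with males for 3 days and entrained to a light and dark cycle for 3 days at 25°C on a sucrose and yeast diet. At about 7 days old they were shifted to 18°C or stayed at 25°C, and pools of flies were dissected by hand at each time point, with gut, ovaries and tubules taken out and the fat collected with the epidermis it is attached to. The 4 groups were 25°C days 4-5 (26 libraries, 19 of replicate 1 and 7 of replicate 2), 18°C days 4-5 (24 libraries, 19 and 5), 25°C days 1-2 (5 libraries) and 18°C days 1-2 (18 libraries), both of replicate 1 alone, where days are counted from the shift. Time of day is given as zeitgeber time (ZT), the hours after lights on, and most time points held a single library, so p-values measure the spread between libraries. Values are TPM, transcript abundances scaled to a fixed total per library, which keep no sequencing depth, and in bulk tissue fewer cells of a type and less RNA per cell cannot be told apart.

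The fat body label was met by its markers: all 8 fat body markers had a median TPM above 5 in each group, and their summed level had medians from 40004 to 44543 TPM. Single libraries ran from 21127 to 55961 TPM, both at 18°C on days 1-2. Markers of other tissues were present in varying amounts. Muscle markers (7 of 9 above 5 TPM at the median in each group) summed to 1503 to 3776 TPM at 25°C and 1081 to 3411 TPM at 18°C on days 4-5, and hemocyte markers (6 of 6) to 186 to 962 and 160 to 646 TPM. Eggshell markers ranged from 0.48 to 7377 TPM at 25°C and 1.13 to 13892 TPM at 18°C on days 4-5, where 0 of 17 and 1 of 17 had a median above 5, and Cp19, Cp7Fc and Vm26Ac had a median of 0 in both groups. Germline markers (2 of 7 and 3 of 7) ranged from 14.9 to 204 and from 16.05 to 757 TPM, with none at a median of 0. Gut markers (5 of 14 and 6 of 14) ranged from 9.76 to 13539 and from 33.1 to 9314 TPM, with gammaTry at a median of 0 in both groups. On days 1-2 at 25°C, 6 of 7 germline and 10 of 17 eggshell markers had a median above 5 TPM. At 18°C on those days it was 3 of 7 and 3 of 17.

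Ribosomal protein transcripts took up a large share of the measured messenger RNA. Their summed TPM was 25.3% ± 1.28 of the total at 25°C on days 4-5 (SD, n = 26) and 21.6% ± 2.06 at 18°C on days 4-5 (SD, n = 24), against 24.9% ± 1.66 at 25°C on days 1-2 (SD, n = 5) and 24.5% ± 1.16 at 18°C on days 1-2 (SD, n = 18). On days 4-5 the libraries ran from 22.7% through a median of 25.0% to 27.7% at 25°C, and from 18.1% through 21.2% to 26.9% at 18°C. The groups overlapped, and 18 of the 24 libraries at 18°C lay below the lowest library at 25°C. Of the 24 pairs of libraries that shared replicate number, day and time, the share was lower at 18°C in 21. At 18°C the 5 libraries of replicate 2 were spread more widely (23.7% ± 2.81, SD) than the 19 of replicate 1 (21.1% ± 1.45, SD). The ratio of large to small subunit TPM varied little between libraries, at 1.61 ± 0.0119 (SD, n = 26) at 25°C and 1.59 ± 0.0144 (SD, n = 24) at 18°C. In replicate 1 it was 1.618 ± 0.0073 at 25°C and 1.590 ± 0.0145 at 18°C (SD). In replicate 2 it was 1.601 ± 0.0129 and 1.604 ± 0.0072, in the other direction. The difference in this ratio was not tested.

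**Figure D1:**
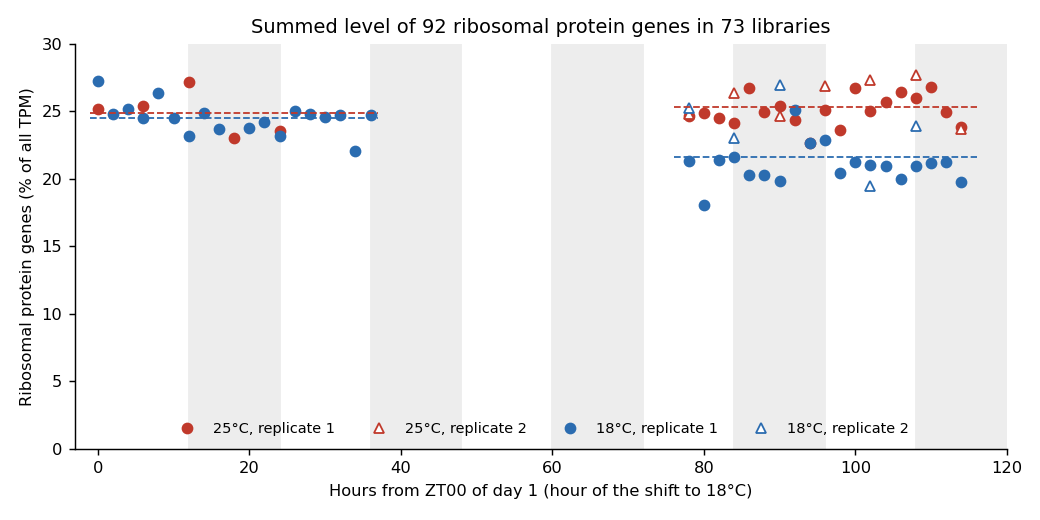
Summed TPM of the 92 ribosomal protein genes as a percentage of all TPM (vertical axis) in each of the 73 libraries against hours from ZT00 of day 1 (horizontal axis). Circles are replicate 1, open triangles replicate 2, dashed lines group means, and grey bands the dark phase; the 18°C libraries of days 4-5 (mean 21.6%) mostly lie below those at 25°C (mean 25.3%), and both temperatures lie close together on days 1-2.

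Levels were even across most of the family. Of the 85 members that passed the filter on low values (on days 4-5, more than 5 TPM at the median of 1 of the temperatures or both), 51 of the large and 34 of the small subunit, 79 had a mean above 1000 TPM on days 4-5, with a median of 2918 TPM. TPM is scaled by transcript length, and how well that holds for short genes such as RpL41 (320 exon bases) and RpL29 (389) was not measured. Removal of duplicate reads, which the methods state, lowers the highest TPM values and would draw high levels together. Whether this table is that version is not given, so the evenness and the order of levels carry both limits. Among the highest were RpL41, the shortest ribosomal protein (7166 ± 645 TPM at 25°C, SD, n = 26), RpLP1, an acidic protein of the stalk that recruits translation factors (4639 ± 322 TPM), RpS26, which sits at the exit of the messenger RNA channel (4237 ± 248 TPM), and RpL29 (4144 ± 262 TPM). The lowest library of RpL41 at 25°C (6020.4 TPM) lay above the highest of RpLP1 (5248 TPM), and the ranges of RpLP1, RpS26 and RpL29 overlapped, so their order is not set apart by the spread between libraries.

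Some members share a protein name with another gene of the family, and their levels were mostly unequal. The other 7 members did not pass the filter, and all of them have such a partner: RpS19b had the highest mean on days 4-5 (0.449 TPM) among them, RpS10a, RpL37b and RpS28-like were below it, and RpL22-like, RpL10Aa and RpS28a were listed at 0 in every library of days 4-5. Their partners were abundant, with RpS19a at 3378 ± 196 TPM, RpS10b at 2409 ± 116.3 TPM, RpL37a at 3781 ± 239 TPM, RpL10Ab at 3030 ± 191 TPM and RpS28b at 2763 ± 157 TPM at 25°C on days 4-5 (SD, n = 26). The RpS14 pair divided the transcript less unevenly, with RpS14a at 2549 ± 141 TPM and RpS14b at 1219 ± 64.6 TPM. RpL34b (2618 ± 146 TPM) exceeded RpL34a (553 ± 49.3 TPM). RpS15Aa (2662 ± 141 TPM) exceeded RpS15Ab (94.8 ± 8.34 TPM), RpL24 (2028 ± 116.1 TPM) exceeded RpL24-like (434 ± 60.3 TPM), RpL7 (3506 ± 257 TPM) exceeded RpL7-like (138 ± 16.2 TPM) and RpLP0 (2633 ± 145 TPM) exceeded RpLP0-like (55.6 ± 9.59 TPM). In yeast the counterparts of RpL24-like, RpL7-like and RpLP0-like are assembly factors of the large subunit and not proteins of the finished ribosome. Where such genes are alike in sequence, which was not measured, the quantification shares reads out between them, so the lower level of each pair is uncertain. RpL7-like also shares 1771 of its 1793 exon bases with another gene, CG34164, so its values here and below are uncertain for that reason too.

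RpS5b had the widest spread between libraries on the log2(TPM + 1) scale of all 85 members tested, with an SD of 2.26 at 25°C and 2.91 at 18°C on days 4-5, against at most 0.25 and 0.48 for the others. RpS5a and RpS5b encode versions of the same protein of the small subunit head, and RpS5b is known in flies from the ovary. RpS5a ran from 2341 through a median of 2603 to 2964 TPM at 25°C and from 1715 through 2049 to 2661 TPM at 18°C on days 4-5, while RpS5b ran from 0 through 50.7 to 307 TPM and from 0.24 through 95.8 to 1000.4 TPM. On days 1-2 at 25°C the 5 libraries had 354, 178, 662, 199 and 82.8 TPM of RpS5b at ZT00, ZT06, ZT12 and ZT18 of day 1 and ZT00 of day 2. RpS5b followed the germline markers, with a Spearman correlation of 0.96 with their mean log2(TPM + 1) over all 73 libraries. Within the 4 groups it was from 0.90 to 0.95, and both sides were measured in the same libraries. RpS5a did not follow them over all libraries (−0.24). Within the groups its correlation ran from −0.32 at 25°C on days 4-5 to 0.70 over the 5 libraries of 25°C days 1-2. The part of ovary tissue in the RpS5b values was not tested.

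The main comparison asks how the settled state at 18°C differed from that at 25°C. On days 4-5, 80 of the 85 members tested fell at 18°C and none rose (limma on log2(TPM + 1) with shared 24 h terms, adjusted p under 0.05 over all 7358 genes tested; 26 against 24 libraries), and 81 had an unadjusted p under 0.05. Over all genes tested 15.5% fell, 35.3% rose and 56.3% had an unadjusted p under 0.05. The median difference over the members was −0.23 on the log2(TPM + 1) scale, a decrease of 14.7%, where the median over all genes tested was 0.09. The shift held for both subunits: 49 of 51 large subunit members fell with a median of −0.24, and 31 of 34 small subunit members with a median of −0.19. Of the 79 members above 1000 TPM, 77 fell, and their differences ran from −0.53 to −0.06. Pair by pair, 69 of the 85 members were lower at 18°C in at least 20 of the 24 pairs and 6 in all 24. This was not counted over all genes. The pairs share only replicate number, day and time, and the members vary together across libraries, so the counts are not separate support.

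**Figure D2:**
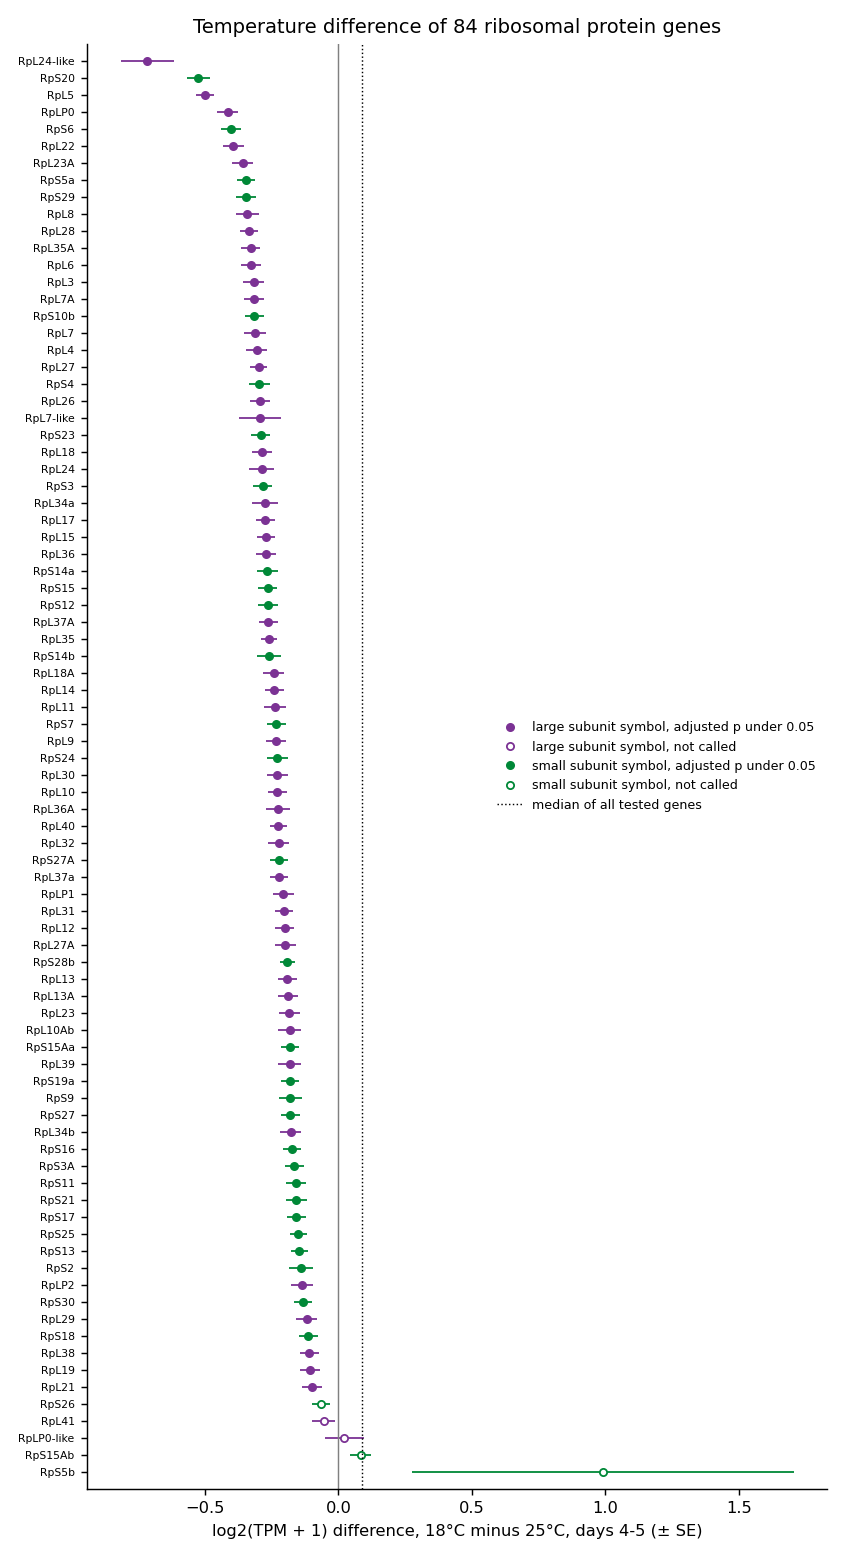
Difference in log2(TPM + 1) between 18°C and 25°C on days 4-5 (horizontal axis, bars are SE from limma) for 84 of the 85 ribosomal protein genes tested (vertical axis, ordered by difference), large subunit symbols in purple and small in green. Filled points passed the adjusted p threshold and open points did not; 79 filled points lie below 0, and the dotted line marks the median of all genes tested at 0.09.

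In the large subunit the clearest case was RpL5, a protein that enters the large subunit together with the 5S ribosomal RNA (FBgn0064225, minus strand of chromosome 2L from 22532279 to 22536884 in BDGP6). RpL5 ran from 3192 through a median of 3547 to 4000.2 TPM at 25°C and from 2150 through 2461 to 3032 TPM at 18°C on days 4-5. These ranges did not overlap, which held for 1 of the 85 members and for 0.136% of all genes tested in this direction. The difference was −0.50 ± 0.03 (log2, SE; adjusted p = 1.5e-16). RpLP0, the base of the stalk (chromosome 3L, 22075867 to 22077487), ran from 2411 through 2604 to 2967 TPM and from 1571 through 1918 to 2577 TPM; 22 of 24 libraries at 18°C lay below the lowest at 25°C, and the difference was −0.41 ± 0.04 (adjusted p = 4.64e-12). RpL22 fell by 0.39 (SE 0.04, adjusted p = 6.72e-12) from 2314 ± 152 to 1764 ± 201 TPM, RpL23A, which lies beside the exit of the nascent chain, fell by 0.36 (SE 0.04) from 3923 ± 281 to 3069 ± 363 TPM, and RpL8, near the catalytic centre, fell by 0.34 (SE 0.04) from 2468 ± 128 to 1960.4 ± 269 TPM. RpL24-like had the lowest difference of all members, −0.72 ± 0.10 (adjusted p = 4.95e-08), from 434 ± 60.3 to 274 ± 96.0 TPM. Its ranges overlapped (294 to 538 and 141 to 536 TPM), and without replicate 1 its difference was −0.24 and did not pass the threshold. The 5 libraries of replicate 2 at 18°C had 344 to 536 TPM of RpL24-like, and without them the difference was −0.84.

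In the small subunit RpS20, a protein of the head (chromosome 3R, 20822181 to 20823356), had the largest decrease. RpS20 ran from 2835 through 3239 to 3945 TPM at 25°C and from 1943 through 2207 to 3007 TPM at 18°C on days 4-5, with 23 of 24 libraries at 18°C below the lowest at 25°C and all 24 pairs lower. The difference was −0.53 ± 0.04 (log2, SE; adjusted p = 3.98e-14). RpS6, the substrate of the nutrient-regulated S6 kinase (chromosome X, 7899624 to 7901331), ran from 2465 through 2755 to 3279.9 TPM and from 1673 through 2105 to 2731 TPM, and its difference was −0.40 ± 0.04 (adjusted p = 1.26e-12). RpS5a fell by 0.35 (SE 0.03, adjusted p = 5.6e-12) and RpS29, another protein of the head, by 0.35 (SE 0.04, adjusted p = 2.52e-10). The exons of RpS20, RpS6, RpS29, RpL22, RpL23A and RpL24-like share bases with another gene, as do those of 29 of the 85 members, and the libraries do not mark strand.

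The 5 members that did not pass were RpL41, RpS26, RpLP0-like, RpS15Ab and RpS5b, named here after their values were seen. RpL41 ran from 6020.4 through 7053 to 8262 TPM at 25°C and from 5751 through 6695 to 9047 TPM at 18°C, and RpS26 from 3743 through 4260.01 to 4649.6 TPM and from 3451 through 3927 to 5204 TPM. Both pairs of ranges overlapped almost wholly, and their differences were −0.06 ± 0.04 (adjusted p = 0.289) and −0.06 ± 0.03 (adjusted p = 0.118). RpLP0-like had a difference of 0.02 ± 0.07, RpS15Ab of 0.08 ± 0.04 and RpS5b of 0.99 ± 0.71.

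**Figure D3:**
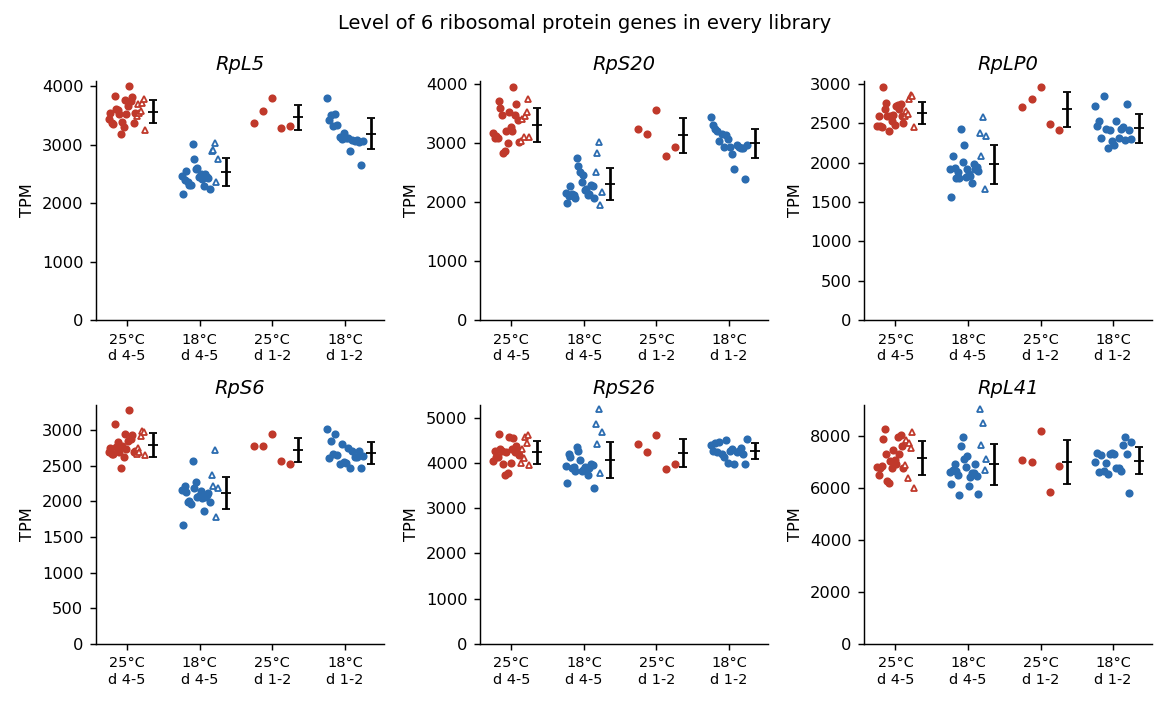
TPM (vertical axes, from 0) of 6 ribosomal protein genes in every library of the 4 groups; circles are replicate 1, open triangles replicate 2, and the black bars mean ± SD. RpL5, RpS20, RpLP0 and RpS6 have lower means at 18°C on days 4-5 than in the other 3 groups, though each range overlaps that of another group. The ranges of RpS26 and RpL41 overlap in all 4.

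The members did not fall by the same factor. With TPM divided by the summed TPM of the members, a scaling chosen after the data were seen that gives each gene's level within the family, 25 members stood lower at 18°C and 24 higher (limma, adjusted p under 0.05; the same scaling gave 4.65% lower and 70.6% higher over all genes). RpS20 (−0.29), RpL5 (−0.27), RpLP0 (−0.18) and RpS6 (−0.17) were among the lower ones, and RpL41 (0.18), RpS26 (0.17) and RpL29 (0.11) among the higher. Large subunit members made up 16 of the 25 lower and 9 of the 24 higher, and small subunit members 9 and 15. Without replicate 1, which leaves 7 libraries against 5, 0 passed in either direction. Many fly ribosomal protein genes carry small nucleolar RNAs, guides of ribosomal RNA modification, in their introns. Of the members tested, 28 hold such a gene (74 in all), and all 28 fell, with a median of −0.27, against 52 of the 57 others with a median of −0.22. The settled difference had a Spearman correlation of −0.38 with total exon length and of 0.24 with mean TPM over the 79 members above 1000 TPM, which were measured in the same libraries.

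The decrease was also fitted in each replicate. Replicate 1 alone gave a median difference of −0.25 over the members with 81 lower, where 16.9% of all genes tested were lower. Replicate 2 alone, with 7 libraries against 5, gave a median of −0.15 with 2 members lower, RpL5 and RpL35A, a share of 2.35% where 2.17% of all genes were lower, while 77 of the 85 estimates lay below 0 and 14 had an unadjusted p under 0.05. The difference between replicates, tested as a temperature by replicate term added after the data were seen, passed for 4 members, RpS14b, RpS18, RpL24 and RpL24-like, where 8.4% of all genes passed, and 25 had an unadjusted p under 0.05, as had 24.4% of all genes. The term was above 0, a smaller decrease in replicate 2, for 76 of 85 members. Its median was 0.12 over the members and −0.005 over all genes, and this gap was not tested. The 4 that passed are a smaller share than that of all genes, so no difference between replicates is read from this count.

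Markers of muscle and hemocytes moved at 18°C in the same direction as the members. Of the markers tested, 4 of 7 for muscle and 4 of 6 for hemocytes fell at 18°C on days 4-5, with medians of −0.57 for each. So did 2 of 3 for oenocytes, 1 of 1 for neurons and 1 of 8 for the fat body, while 1 of 3 for the germline and 1 of 6 for the gut rose, and 0 of 2 for tubules and 0 of 1 for the eggshell passed. Over all genes tested 15.5% fell and 35.3% rose, and the fat body, germline and gut counts are no larger shares than these. Within groups the summed share of the members had Spearman correlations from −0.35 to −0.24 with the muscle score (the mean log2(TPM + 1) of the list) and from −0.46 to −0.42 with the hemocyte score (26, 24 and 18 libraries, which share their scaling). With the fat body score it was 0.24 at 25°C and −0.44 at 18°C on days 4-5 and −0.17 at 18°C on days 1-2. With the scores of germline, eggshell, gut and muscle as covariates 81 members fell and the median was −0.30. The scores of hemocytes, oenocytes, neurons, tubules and the fat body were not covariates. The part of these tissues in the decrease was not tested beyond that.

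The other genes of the translation machinery did not all move with the ribosomal proteins. Proteins bound to the ribosome did: all 5 tested fell, with a median of −0.41, among them Rack1, a scaffold on the small subunit (−0.41 ± 0.04, SE, limma adjusted p = 1.74e-11), sta, a small subunit protein whose symbol lies outside the rule (−0.46 ± 0.04, adjusted p = 4.64e-12), Tctp (−0.45 ± 0.04) and Nacalpha, part of the nascent chain complex (−0.36 ± 0.05). Of 9 elongation and release factors, 6 fell and 1 rose, and eEF1alpha1, which delivers transfer RNA (−0.47 ± 0.04), eEF1beta (−0.45 ± 0.04), eEF1gamma (−0.39 ± 0.04) and eEF2, which moves the ribosome along (−0.25 ± 0.03), were among those that fell. Initiation factors were split, with 13 of 27 lower and 8 higher. Over all genes tested 15.5% were lower and 35.3% higher. Those with the smallest p-values, eIF3h (−0.66 ± 0.04), eIF3m (−0.56 ± 0.05), eIF3b (−0.42 ± 0.05) and eIF3l (−0.44 ± 0.05), are all subunits of the scaffold complex of initiation and fell.

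Genes that act before the ribosome is finished were counted beside the 35.3% of all genes that rose and the 15.5% that fell. Of 4 genes of RNA polymerase I, which transcribes ribosomal RNA, 0 passed (0 at an unadjusted p under 0.05), with RpI12 at 0.25 ± 0.13, RpI1 at −0.09 ± 0.10, RpI135 at 0.05 ± 0.10 and Tif-IA at 0.03 ± 0.07. Of 9 nucleolar assembly factors 4 rose, among them Ns1 (0.19 ± 0.06), nop5 (0.35 ± 0.13) and mod (0.25 ± 0.10), and 1 fell, Non1 (−1.25 ± 0.09). Of 16 regulators of ribosomal protein genes and of translation 5 rose and 4 fell. Trf2, a core promoter factor of ribosomal protein genes in flies (0.61 ± 0.08, limma adjusted p = 1.52e-08), and Mnt, which opposes Myc (0.68 ± 0.10), rose, and Myc (−0.43 ± 0.09) and its partner Max (−0.24 ± 0.04) fell.

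The mitochondrial ribosome, which translates the few proteins encoded in mitochondria, is built from a separate set of nuclear genes. Of 73 mitochondrial ribosomal protein genes 38 rose and 3 fell at 18°C on days 4-5, with a median of 0.15 against −0.23 for the cytosolic members. Over all genes tested 35.3% rose and 15.5% fell, with a median of 0.09. The most significant were mRpL10 (0.43 ± 0.06, limma adjusted p = 1.1e-08) and mRpL46 (0.38 ± 0.05). Their summed TPM was far smaller, 0.309% ± 0.027 of the total at 25°C (SD, n = 26) and 0.34% ± 0.0484 at 18°C (SD, n = 24). TPM has a fixed total, so a lower summed share of the cytosolic members raises the values of other genes. The mitochondrial genes were not counted on another scaling.

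**Figure D4:**
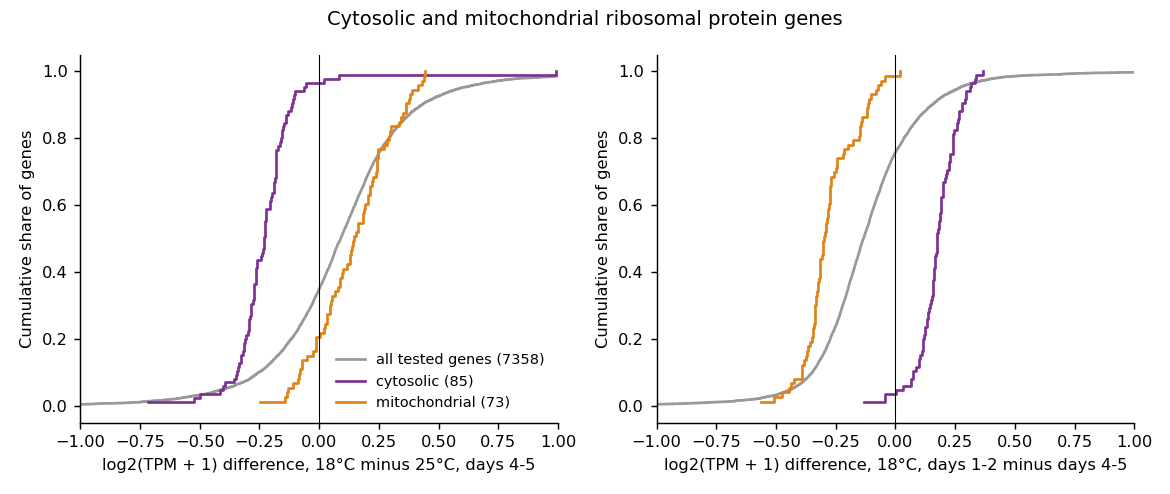
Cumulative share of genes (vertical axes) against the log2(TPM + 1) difference between 18°C and 25°C on days 4-5 (left) and between days 1-2 and days 4-5 at 18°C (right), for all 7358 genes tested in grey, 85 cytosolic in purple and 73 mitochondrial ribosomal protein genes in orange; differences beyond 1 in size are outside the axes. The purple and orange curves have medians on opposite sides of 0 in both panels, −0.23 and 0.15 on the left and 0.17 and −0.30 on the right, and both curves cross 0.

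The libraries of days 1-2 follow the members from the hour of the shift. At 18°C, 67 of the 85 members were higher on days 1-2 than on days 4-5 and none was lower (limma with shared 24 h terms, 17 against 24 libraries, the hour of the shift left out; 74 at an unadjusted p under 0.05), where 6.14% of all genes tested were higher, 23.9% lower and 41.8% had an unadjusted p under 0.05. The median was 0.17 over the members and −0.13 over all genes. Rescaled by median ratios, the members' median was 0.28 and the split over all genes went from 452 higher and 1759 lower to 889 and 866. The large subunit gave 41 of 51 and the small subunit 26 of 34. All libraries of days 1-2 are of replicate 1, and without replicate 2 on days 4-5 78 members were higher. The 18°C libraries of days 4-5 enter both this comparison and the settled one, so both lists of differences share them, and the age of the flies and the time after the shift cannot be told apart. Mitochondrial ribosomal protein genes went the other way, with 54 of 73 lower on days 1-2 and none higher, and a median of −0.30. All 7 muscle markers and 5 of 6 hemocyte markers tested were higher on days 1-2. There the lists summed to 2038 to 3617 and 245 to 927 TPM, with only fln at a median of 0. With the scores of germline, eggshell, gut and muscle as covariates 75 members were higher on days 1-2. The hemocyte score was not a covariate.

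RpS6 had the smallest p-value in this comparison. It ran from 2464 through 2636 to 2951 TPM over the 17 libraries of days 1-2 and from 1673 through 2105 to 2731 TPM on days 4-5, and the difference was 0.33 ± 0.04 (log2, SE; adjusted p = 1.33e-06). RpS20 (0.37 ± 0.05), RpL5 (0.32 ± 0.04), RpL35A (0.28 ± 0.04, adjusted p = 5.27e-06) and RpL23A (0.31 ± 0.05) followed, and the ranges of each overlapped between periods. RpL5 had 3376 ± 146 TPM at hours 2 to 12 (SD, n = 6), 3085 ± 111 TPM at hours 14 to 24 (n = 5), 3002 ± 169 TPM at hours 26 to 36 (n = 6) and 2531 ± 243 TPM on days 4-5 (n = 24). RpS20 gave 3139 ± 138, 2896 ± 227, 2844 ± 227 and 2301 ± 275 TPM over the same windows. RpS6 gave 2714 ± 158, 2624 ± 143, 2631 ± 90.6 and 2122 ± 224 TPM. RpL41 gave 6904 ± 348, 7106 ± 316, 7193 ± 813 and 6916 ± 794 TPM. The summed share of all members was 24.8% ± 1.02, 23.95% ± 0.647 and 24.3% ± 1.11 in the first 3 windows (SD), and windows of days 1-2 hold time points of 1 library each. The windows differ in time of day and were not tested against each other.

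At 25°C the members changed little between the periods. None was higher and 2 were lower on days 1-2 than on days 4-5 (limma, 5 against 26 libraries; 4 at an unadjusted p under 0.05), where 4.61% of all genes tested were higher, 16.1% lower and 34.5% had an unadjusted p under 0.05, and the median over the members was −0.006. Rescaled by median ratios, the split over all genes went from 339 higher and 1187 lower to 744 and 656, and the members' median was 0.09. The 2 were RpL22 (−0.17 ± 0.05, SE, adjusted p = 0.0202) and RpL24-like (−0.25 ± 0.09, adjusted p = 0.0497). RpL22 had 1982, 2064, 2241, 1920 and 1916 TPM at ZT00, ZT06, ZT12 and ZT18 of day 1 and ZT00 of day 2, against 1924 through a median of 2356 to 2601 TPM on days 4-5. Its ranges overlapped, with 2 of the 5 values under the lowest of days 4-5. Leaving out ZT18 of day 1 left 0 members lower, and leaving out ZT00 or ZT06 of day 1 or ZT00 of day 2 left 1. Markers of other tissues also differed between these periods. Of those tested, 1 of 3 for the germline (median 2.20) and 1 of 1 for the eggshell (4.90) were higher on days 1-2. For hemocytes 3 of 6 were lower (median −0.76), and none of these lists had a marker called in the other direction. The part of these tissues was not tested beyond the fit with marker scores, which left out hemocytes.

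On days 1-2 the temperatures were sampled together at 3 time points after the shift, with 1 library each. No member passed in either direction, and none had an unadjusted p under 0.05 (limma, 3 against 3 libraries), where 0% of all genes tested were called higher, 0% lower, and 12% had an unadjusted p under 0.05. The median over the members was −0.10 and 81 of 85 estimates lay below 0, with 0.16 over all genes; the members' median was −0.32 when rescaled by median ratios, −0.05 with the libraries of the hour of the shift added, and ran from −0.14 to −0.04 with a pair left out. With library weights, which let noisier libraries count less, the same 6 libraries gave 927 genes higher and 697 lower, 1 of them a member (RpS5b, lower). RpL5 had 3576 TPM at 25°C and 3316 TPM at 18°C at ZT06 of day 1, 3798 and 3132 TPM at ZT12, and 3319 and 2903 TPM at ZT00 of day 2. It was lower at 18°C in all 3 pairs, with a difference of −0.19 ± 0.22 (SE). RpS20 was lower in 2 of the 3, at 3152 and 3194, 3555 and 2926, and 2934 and 2557 TPM, with a difference of −0.15 ± 0.22. On days 4-5 the differences were −0.50 for RpL5 and −0.53 for RpS20, beside SEs of 0.22 here. At 18°C the library of ZT00 of day 2 had the lowest fat body score of its group (8.87, median 10.47). It also had the highest hemocyte score (6.84, median 5.87). All 8 fat body markers were below 0 in this comparison (median −0.65, 0 at an unadjusted p under 0.05). All 6 hemocyte markers were above 0 (median 1.33, 6 at an unadjusted p under 0.05). The part of tissue make-up in these differences was not tested.

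Whether the temperature difference itself changed between the periods was tested as a temperature by period term on 27 libraries from ZT00, ZT06 or ZT12 of all 4 groups. No member passed (limma; 14 at an unadjusted p under 0.05), where 1.22% of all genes tested passed above 0, 0.394% below and 16.7% had an unadjusted p under 0.05. The term was above 0, a less negative or more positive difference on days 1-2, for 82 of the 85 members. Its median was 0.14 against 0.07 over all genes. Rescaled by median ratios, a scaling to the typical gene of each library, the members' median was 0.014. RpL22 had the smallest p-value (0.38 ± 0.11, SE, adjusted p = 0.0693), followed by RpS20 (0.40 ± 0.13, adjusted p = 0.106), RpL35A (0.33 ± 0.11), RpS5a (0.30 ± 0.10) and RpS6 (0.30 ± 0.10). All 6 hemocyte markers (median 1.58) and the 1 eggshell marker (−6.37) had an unadjusted p under 0.05 for this term, and none of them passed. The temperature difference of the members was thus not shown to differ between days 1-2 and days 4-5.

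No member passed the test for a daily rhythm. Harmonic regression with a 24 h period called 0 of 85 members at 25°C (18 at an unadjusted p under 0.05) and 0 at 18°C (9 at an unadjusted p under 0.05), where 5.04% and 1.78% of all genes tested were called and 22% and 27.4% had an unadjusted p under 0.05. Amplitudes, the height of the fitted curve above its mean on the log2(TPM + 1) scale, were small. Over the 79 members above 1000 TPM their median was 0.05 at 25°C and 0.06 at 18°C and their highest values were 0.10 and 0.14. At 25°C the smallest p-values belonged to RpL24-like (amplitude 0.19, adjusted p = 0.071), RpL34a (0.11, adjusted p = 0.0792), RpS15Aa (0.06), RpS28b (0.06) and RpS3A (0.07), and at 18°C to RpS15Ab (0.13, adjusted p = 0.0696), RpL22 (0.14, adjusted p = 0.0791), RpL7-like (0.32), RpL35A (0.09) and RpL4 (0.13). RpS15Ab ran from 84.4 through 99.6 to 118 TPM over the 24 libraries at 18°C, with a fitted peak at ZT 21.1 ± 0.99 h (SE), and had an amplitude of 0.02 at 25°C.

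The fitted peaks of the members lay close together at each temperature and apart between them. Of the 79 members above 1000 TPM, 66 had a fitted peak between ZT06 and ZT12 at 25°C, late in the light phase, and 71 between ZT18 and ZT24 at 18°C, late in the dark phase. This is a description of curves that did not pass the test, and the members share their libraries: the median correlation between 2 members across libraries was 0.73 at 25°C and 0.83 at 18°C, against 0.14 and 0.15 between any 2 genes tested. Differential rhythmicity, the test of whether the daily curve differed between temperatures, called 0 of 85 members (limma; 19 at an unadjusted p under 0.05), where 0.435% of all genes tested were called and 14% had an unadjusted p under 0.05. RpL22 had the smallest p-value (adjusted p = 0.209), followed by RpL12, RpS3A, RpL35A and RpS20. The settled decrease was present in both phases of the day, with 75 members lower in the light phase alone (median −0.27; 9.42% of all genes were lower and 15.4% higher) and 60 in the dark phase alone (median −0.19; 9.49% and 23%), each on fewer libraries, and the difference between phases was not tested.

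**Figure D5:**
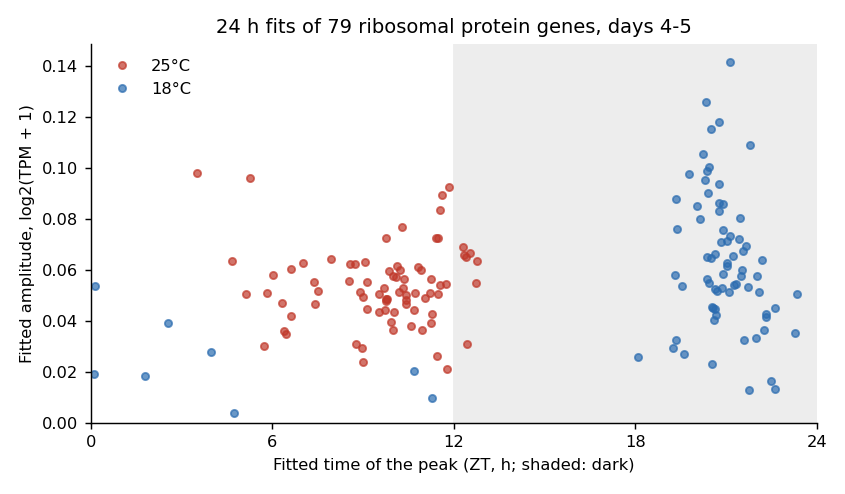
Fitted time of the daily peak (horizontal axis, ZT in hours, dark phase shaded) and fitted amplitude (vertical axis, log2(TPM + 1)) of the 79 ribosomal protein genes with a mean above 1000 TPM, at 25°C in red and 18°C in blue on days 4-5. None of the fits passed the adjusted threshold; 66 red points lie between ZT06 and ZT12 and 71 blue points between ZT18 and ZT24.

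The members were also the steadier part of the transcriptome from library to library. The median SD of log2(TPM + 1) over the members above 1000 TPM was 0.09 at 25°C and 0.15 at 18°C on days 4-5, against 0.21 and 0.30 over all genes tested, whose levels are mostly lower. At 18°C on days 1-2 the members' median SD was 0.08.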

How the data were processed

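The authors prepared non-stranded libraries of polyadenylated RNA, per the labels and methods, aligned reads with STAR 2.7.10a and quantified them with RSEM on BDGP6 (Ensembl BDGP6.32). The methods state that duplicate reads were removed, which lowers the highest TPM values, and whether the deposited table is that version is not given in the sources used here. The authors deposited TPM for 23932 genes in 73 libraries. Columns have equal sums, so depth is unknown and precision rests on the number of libraries. All columns matched a sample title.

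The 7358 genes whose median exceeded 5 TPM on days 4-5, at 18°C or at 25°C, were tested on log2(TPM + 1), a scale that understates changes of low genes, with limma 3.58.1 in R 4.3.3 or harmonic regression, and Benjamini-Hochberg adjustment with a threshold of 0.05. The designs were checked on simulated data. Adjusted p-values in the text are from these fits. Members named are the 10 with the largest settled differences, the 5 with the smallest p-value in each further test, the 5 highest levels, paralogue families and the extremes of those not tested, with up to 4 genes of each other list; other names are marked. A member that the rule would name is not reported here by name or drawn in the plot of differences. The members and lists were chosen with earlier results of these data known. Positions, intron-hosted genes and exon overlaps come from Ensembl BDGP6.54. No sequences are printed. Alternatives were pseudocount, filter, scaling, library weights, marker scores, blocks, phases of the day and left-out libraries. The marker scores used as covariates were those of germline, eggshell, gut and muscle, and of germline and eggshell alone for temperature by period.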

Additional observations from a re-analysis of the deposited data

Results flagged for a closer look

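In the 5 libraries of 25°C days 1-2, RpS3A, a small subunit protein, had 3242 TPM at ZT12 of day 1, while the other libraries had 2707 to 2860.2 TPM. Its gap to the nearest library was over the 95% critical value of Dixon's test for 5 values. Over the summed share and the named members, 1 such value was found, and chance alone gives about 1 in 20 groups. The summed share of the members was also highest in that library, at 27.2%.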

How the results depend on the processing

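The settled decrease kept its direction at the median under all alternatives run: 79 to 82 members were lower with other pseudocounts, filters, scalings, weights, marker scores or harmonic terms, 75 and 60 in the light and dark phase alone, 80 to 81 with each of the 50 libraries left out in turn (added after the data were seen), and 2 to 81 without replicate 1 or 2. With replicate 1 or 2 left out RpL29 ran from −0.15 to 0.00330. Members higher were 1 (RpS15Ab) with separate harmonic terms, and 0 to 1 with a library left out. Rescaling by median ratios moved the median of the members to −0.30 and the split over all genes from 2597 higher and 1137 lower to 2038 and 1731 (1794 and 1599 when scaled to genes that are not members). Relative to the members, 24 higher and 25 lower became 0 and 0 without replicate 1. At 25°C members with a rhythm were 2 with library weights (RpL24-like, RpS15Aa), 3 with a replicate block (RpL24-like, RpL34a, RpS28b) and 18 with no adjustment; at 18°C they were 1 (RpS15Ab) scaled to genes that are not members, with library weights or without replicate 2, and 9 with no adjustment. At 18°C the period median of the members was 0.26 with marker scores, and without replicate 2 it was 0.21. Library weights gave 1 member lower on days 1-2 (RpS5b) and 1 lower in the period difference at 18°C (RpLP0-like). Members lower in the period difference at 25°C were 1 with a pseudocount of 0.1, no filter or scaling to genes that are not members (RpL22 each) or marker scores (RpL24-like), 0 when rescaled by median ratios, where 1 was higher (RpL34a), and 0 to 2 with a library left out; their median turned to 0.0915 when rescaled by median ratios, 0.0187 with library weights, 0.00996 with marker scores, and ran from −0.0382 to 0.0169 with a library left out (highest without ZT18 of day 1; 0.00439 without ZT00 of day 2). The temperature by period term called 1 member, RpL22, with a median TPM above 20 (0.38) or scaled to genes that are not members (0.43). The cause of these changes was not tested. The 24 pairs share only numbers and times: deviations of paired libraries correlated from −0.47 to 0.62 (median 0.04), 9 over 0.1. With the pairs as a replicate block 80 members were lower (median −0.23), and with replicate number as the block 80 (median −0.22). Depth is unknown, so the counting error of low members such as RpLP0-like could not be estimated.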
